A study of Mus musculus with 6 samples.

Results

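The 10 genes described here are the SPARC family (Fstl1, Sparcl1, Sparc, Smoc1, Smoc2, Spock1, Spock2 and Spock3) and the follistatins Fst and Fstl3, taken by gene name from a table of 20173 genes, in which all 10 were found. RNA was sequenced from 3 Slit2fl/fl and 3 Slit2th libraries, labelled SLIT2f/f and SLIT2-knockout, with sympathetic ganglion given as the tissue and neuron as the cell type. Both groups carried loxP-flanked Slit2 alleles, and in Slit2th mice Cre recombinase was expressed under the Th (tyrosine hydroxylase) promoter, so that deletion is limited to cells that use or have used this promoter. By the study's methods, cells were dissociated from sympathetic chains of male mice aged 3 weeks and kept in culture for 4 to 5 days before RNA was taken, but the isolation protocol to which they refer speaks of dorsal root neurons. No Cre-only group was analysed here, the number of mice behind each culture is not stated, and p-values measure only the spread between these 3 and 3 libraries. The comparison asks whether relatives of Fstl1, a soluble factor that the study followed further, differed between the groups together with it. Fstl1 had been chosen for follow-up by the study from these same libraries, and the level of Sparcl1 in them was already known when the list was drawn up. The direction of neither in these libraries is therefore independent evidence of a difference. Separately, the study reported higher Fstl1 in Slit2th sympathetic neurons by real-time PCR, Western blot and ELISA, which were not analysed here.

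SPARC family proteins are secreted, matricellular glycoproteins that share a follistatin-like domain and an extracellular calcium-binding domain. SPARC binds collagen and shapes matrix assembly, SPARCL1 (hevin) is made by glia and vascular cells and acts in synapse formation, and FSTL1 binds BMP4 and dampens BMP signaling. SMOC proteins sit in basement membranes, SPOCK proteins (testicans) are proteoglycans of nervous tissue, and follistatin and FSTL3 capture activins and related ligands outside the cell.

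The libraries held 1255939 to 3155406 counts, and a floor of 3 counts equals 0.961 to 2.65 CPM (each library's counts scaled to a common total after TMM normalization), which covers counting error only. Replicate 1 of each group stood apart, with a Pearson correlation across genes of 0.842 to 0.869 to the other libraries of its own group, against 0.938 and 0.965 between the other two of each group. Slit2 itself had 139, 85 and 77 counts in the Slit2fl/fl libraries against 17, 24 and 27 in the Slit2th libraries, so every Slit2th library was lower. Among the sympathetic neuron markers, Th and Rbfox3 had no count in any library. The 20 markers of this list in the table summed to 202 to 593 CPM, whereas 16 glia markers reached 6138 to 21413 CPM together, so in every library the markers of the labelled cell type were far lower in sum than those of glia. In such bulk RNA, more cells of a type cannot be told apart from more RNA per cell.

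Levels of the 10 genes spanned more than 4 orders of magnitude when expressed as CPM per kilobase of merged exons, the scale on which different genes can be compared. Sparc was by far the highest at 1396 ± 313 CPM per kilobase (SD, n = 6 libraries; range 1029.6 to 1926), rank 29 among the 12152 genes tested. It was followed by Fstl1 at 66.5 ± 81.0 (range 10.9 to 229) and Sparcl1 at 25.2 ± 15.4 (range 5.56 to 45.9). Fstl1 lay above Sparcl1 in 5 of 6 libraries, but their ranges overlap. Smoc2 (3.18 ± 0.882) and Spock1 (1.73 ± 0.534) also overlap, with Smoc2 higher in 5 of 6 libraries, and Fst was at 0.569 ± 0.470. The remaining 4 genes, Spock2, Spock3, Smoc1 and Fstl3, averaged 0.0606 to 0.102 CPM per kilobase and cannot be ordered.

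**Figure D1:**
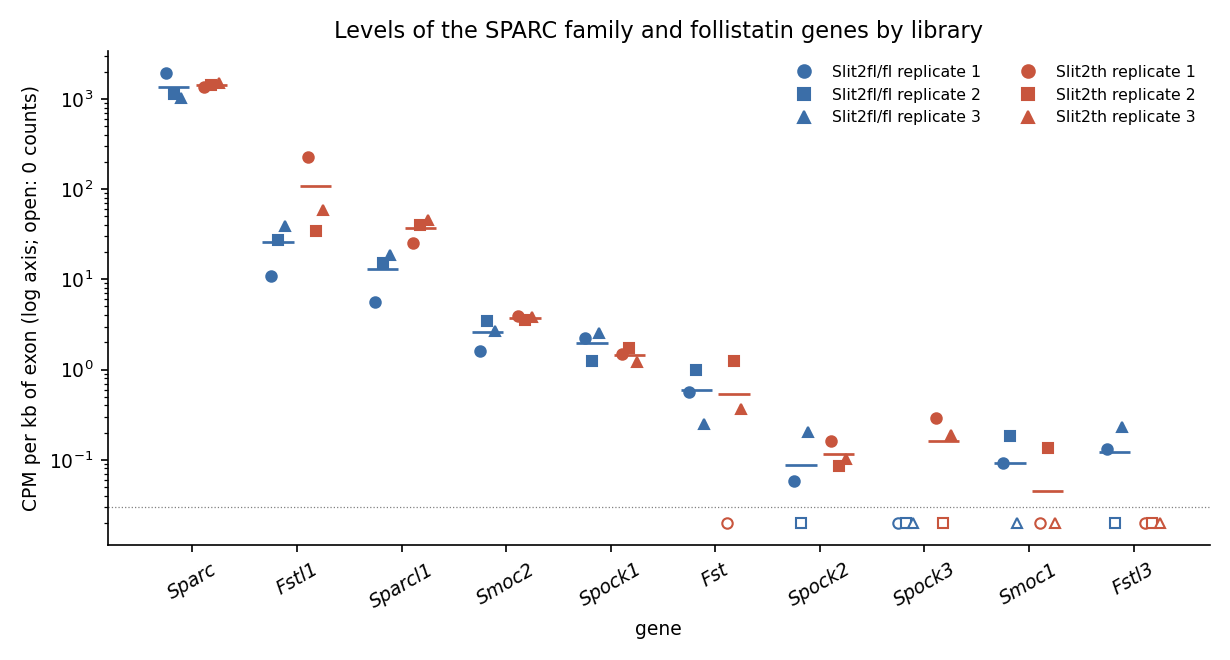
Level of each gene in each library, in CPM per kilobase of merged exons on a log axis, with Slit2fl/fl in blue, Slit2th in red, a marker shape per replicate, bars for group means and open symbols for libraries with 0 counts. Sparc sits between 1029.6 and 1926 in all libraries, whereas Fstl1 runs from 10.9 to 229, with Slit2th replicate 1 at the top.

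Fstl1 (ENSMUSG00000022816, GRCm38 chromosome 16, 37776873 to 37836514, plus strand, 12 merged exons) encodes a secreted BMP-binding glycoprotein. Its level was 53.8, 133 and 192 CPM in Slit2fl/fl replicates 1, 2 and 3, and 1124, 169.8 and 290 CPM in Slit2th replicates 1, 2 and 3. Slit2th replicate 1 stood far above the rest and Slit2fl/fl replicate 1 below the rest, while Slit2th replicate 2 lay under Slit2fl/fl replicate 3, so the groups overlap. The group means were 126.1 ± 69.2 and 528 ± 520 CPM (SD, n = 3 each). The log2 fold change was 2.07 (standard error 0.73, 95% interval 0.41 to 3.72), and the adjusted p over all tested genes was 0.422 by edgeR's quasi-likelihood test (unadjusted p = 0.020). Without Slit2fl/fl replicate 1 or 2 it was 1.72 or 2.12, with an unadjusted p of 0.070 or 0.0503 (edgeR). It was 0.87 without Slit2th replicate 1 (unadjusted p = 0.129, edgeR) and 0.48 without both replicates numbered 1 (adjusted p = 0.359, edgeR).

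Sparcl1 (ENSMUSG00000029309, chromosome 5, 104079111 to 104113733, minus strand, 12 merged exons) encodes hevin, the closest relative of SPARC. It was at 16.3, 44.1 and 55.1 CPM in Slit2fl/fl replicates 1 to 3 and at 75.0, 119 and 135 CPM in Slit2th replicates 1 to 3. The lowest Slit2th library was above the highest Slit2fl/fl library, and here Slit2th replicate 1 was the lowest of its group rather than the highest. Means were 38.5 ± 19.997 and 110 ± 31.0 CPM (SD, n = 3 each), and the exact permutation test (two-sided) gave p = 0.10, which is as low as 3 against 3 can go. The log2 fold change was 1.52 (standard error 0.49, 95% interval 0.41 to 2.63; adjusted p = 0.422 and unadjusted p = 0.0128 by edgeR's test). Leaving out both replicates numbered 1 gave 1.34 and an adjusted p of 0.00671 (edgeR), the only one of the 10 genes to pass in that fit, in which 3.29% of genes passed in either direction and 0.767% as higher in Slit2th. All other fits left its adjusted p above the threshold, with log2 fold changes from 1.14 to 1.81. The unadjusted p was under 0.05 in 18 of 19 alternatives. The exception was the fit without replicate 2 of both groups (1.53, unadjusted p = 0.0658, edgeR).

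Sparc (ENSMUSG00000018593, chromosome 11, 55394500 to 55423183, minus strand, 12 merged exons) is the collagen-binding founder of the family. The Slit2fl/fl libraries held 7295, 4343 and 3900.3 CPM of Sparc, and the Slit2th libraries 5126, 5419 and 5641 CPM. The Slit2th libraries lay close together, inside the range of the Slit2fl/fl libraries, of which replicate 1 was the highest of all 6. The log2 fold change was 0.06 (standard error 0.37, 95% interval -0.77 to 0.89; adjusted p = 0.955 by edgeR's test), so a difference of up to 0.89 on this scale lies within its interval. The sign was not stable, since leaving out libraries gave -0.18 to 0.41. The 0.41, without replicate 1 of both groups, had an adjusted p of 0.194 by edgeR (unadjusted p = 0.0218), in a fit where 7.12% of genes were higher at an unadjusted p under 0.05. Sparc alone took 0.388% to 0.722% of all counts. It made up 80.5% of the counts of the 10 genes in Slit2th replicate 1 and 92.4% to 98.6% in the other 5 libraries.

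Smoc2 (ENSMUSG00000023886, chromosome 17, 14279506 to 14404790) encodes a matricellular protein with 2 thyroglobulin-like domains. In Slit2fl/fl it was at 11.2, 24.0 and 18.8 CPM, and in Slit2th at 27.4, 24.8 and 26.5 CPM. The groups did not overlap, with Slit2th higher by a narrow margin (exact permutation test, two-sided, p = 0.10). The log2 fold change was 0.55 (standard error 0.42, 95% interval -0.38 to 1.49; adjusted p = 0.601 by edgeR's test), and without Slit2fl/fl replicate 1 it was 0.30. Its paralog Smoc1, known for its part in eye and limb development, had 1, 1 and 0 counts in Slit2fl/fl replicates and 0, 1 and 0 in Slit2th replicates, under the floor of 3 counts in every library.

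The testicans were low. Spock1 (ENSMUSG00000056222, chromosome 13, 57421195 to 57908332), which encodes testican-1, measured 18.6, 10.4 and 21.04 CPM across Slit2fl/fl, then 12.4, 14.3 and 10.2 CPM across Slit2th. It was the only tested SPARC family gene with a negative log2 fold change, -0.44 (standard error 0.45, 95% interval -1.45 to 0.56; adjusted p = 0.690 by edgeR's test), and its groups overlap. Spock2 had 1, 0 and 2 counts in Slit2fl/fl and 1 in each Slit2th library. Spock3 had no count in Slit2fl/fl and 2, 0 and 2 counts in Slit2th. Neither gene reached the floor in any library, so a difference was not detectable at this depth.

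Fst (ENSMUSG00000021765, chromosome 13, 114452290 to 114458951) encodes follistatin, the activin antagonist that gives the domain its name. Slit2fl/fl libraries had 8, 7 and 2 counts (2.56, 4.54 and 1.14 CPM), and Slit2th libraries 0, 12 and 3 counts (0, 5.73 and 1.69 CPM). The 0 in Slit2th replicate 1 allows up to 2.65 CPM, which lies within the range of the other libraries. The log2 fold change was -0.02 with a standard error of 1.13 (95% interval -2.56 to 2.53; adjusted p = 0.996 by edgeR's test), so neither a rise nor a fall of several fold lies outside the interval. Leaving out single libraries or replicate numbers gave log2 fold changes from -1.41 (without Slit2th replicate 2) to 0.47 (without Slit2th replicate 1 or Slit2fl/fl replicate 2). The antisense gene Gm47040 overlaps its exons, and whether counting used strand is not stated. Fstl3, whose product also binds activins, had 1, 0 and 1 counts in Slit2fl/fl and none in Slit2th, again under the floor, and Prss57 on the opposite strand overlaps its exons. Together the 4 genes too low to test, Smoc1, Spock2, Spock3 and Fstl3, had 7 counts in Slit2fl/fl and 8 in Slit2th.

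Of the 10 genes, 6 passed the filter of at least 1 CPM in at least 3 libraries. None of them reached an adjusted p under 0.05 by edgeR's quasi-likelihood test, nor did any gene in the table (0 of 12152, 0.0%; 1309 genes at an unadjusted p under 0.05; 31 genes by DESeq2 and 17 by edgeR's exact test after adjustment, none of the 6 among them). At an unadjusted p under 0.05, 2 of the 6 were higher in Slit2th, Fstl1 and Sparcl1, and 0 were lower, where 3.99% of all tested genes were higher and 6.78% lower (485 and 824 genes, or 623 and 712 with GC-corrected offsets). The direction of both was already known, and 0 of the other 4 had an unadjusted p under 0.05. The log2 fold change was above 0 for 4 of the 6, and for 47.8% of all tested genes. Groups did not overlap, with Slit2th above, for Sparcl1 and Smoc2, which is 2 of 6 against 8.74% of all tested genes, and 0 of 6 lay wholly below, against 9.72%. Smoc2, Sparc, Spock1 and Fst thus had no difference that this test could separate from the replicate spread.

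**Figure D2:**
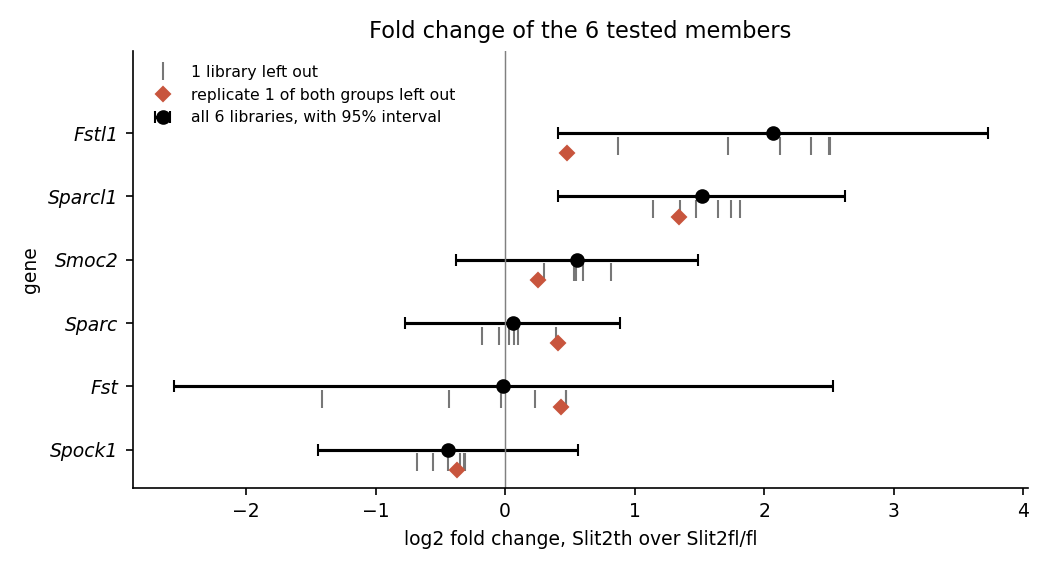
Log2 fold change of the 6 tested genes, Slit2th over Slit2fl/fl, with the 95% interval derived from edgeR's test in black, fits without 1 library as grey ticks and the fit without replicate 1 of both groups as red diamonds. Fstl1 drops from 2.07 to 0.48 at its diamond, whereas Sparcl1 stays at 1.34.

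Whether a relative moved differently from Fstl1 was read from the ratio of the 2 genes inside each library, which needs no scaling between libraries. Fstl1 was 3.29, 3.01 and 3.47 times Sparcl1 in the CPM of Slit2fl/fl replicates 1, 2 and 3, and 15.0, 1.43 and 2.15 times in Slit2th replicates 1, 2 and 3. The ratio was thus nearly the same in the Slit2fl/fl libraries and spread over 10-fold in the Slit2th libraries, to both sides of the Slit2fl/fl values. On the log2 scale the groups differed by 0.14 (1.70 ± 0.10 against 1.84 ± 1.81, SD, n = 3 each; two-sided exact permutation test, p = 1.0), and without Slit2th replicate 1 the difference was -0.89. Fstl1 relative to Sparc was -7.08, -5.03 and -4.35 on the log2 scale in Slit2fl/fl and -2.19, -5.00 and -4.28 in Slit2th. Replicates 2 and 3 of the groups were almost equal here, and the difference between groups was 1.66 with all libraries and 0.05 without replicate 1 of both groups. Without Slit2fl/fl replicate 1 it was 0.87, and without Slit2th replicate 1 it was 0.85. The differences for Smoc2 and Spock1 were 1.17 and 2.17 with all libraries, 0.42 and 1.40 without Slit2th replicate 1, and 0.20 and 0.77 without replicate 1 of both groups. For Sparc, Smoc2 and Spock1 the groups overlap, with p = 0.20 by the two-sided exact permutation test and 0.267 after Benjamini-Hochberg adjustment over the 4 ratios, where 0.10 is the smallest unadjusted p possible. With that smallest p the test could not pass 0.05, so it cannot show that a relative moved differently from Fstl1. No relative was shown to move with Fstl1 either, and Fstl1 itself did not pass the adjusted threshold between the groups.

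**Figure D3:**
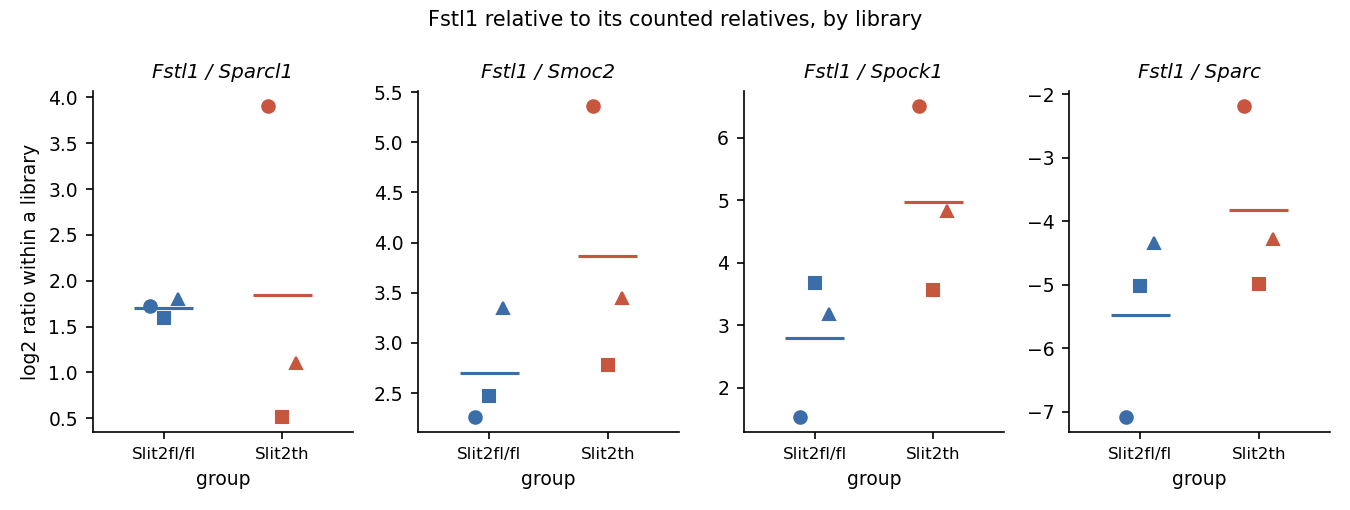
Log2 ratio of the CPM of Fstl1 to that of Sparcl1, Smoc2, Spock1 and Sparc within each library, with circles, squares and triangles for replicates 1, 2 and 3 and bars for group means; the vertical axes differ between panels. Slit2th replicate 1 is the highest point in every panel, and against Sparcl1 the other 2 Slit2th libraries lie below all Slit2fl/fl libraries.

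Likeness over the 6 libraries was measured as the root mean square difference of log2 CPM, centred on each gene's mean, among 7482 other genes with a mean of at least 10 CPM. Closest to Fstl1 were Pck2 (0.27), Dnase2a (0.34), B230354K17Rik (0.34), Epm2aip1 (0.37) and Vcan (0.38), where the median gene was at 1.39. Pck2, a mitochondrial gluconeogenic enzyme gene, stood at 17.3, 33.7 and 48.9 CPM for Slit2fl/fl but 224, 32.9 and 61.5 CPM for Slit2th. Vcan, which encodes the matrix proteoglycan versican, stood at 38.7, 58.3 and 82.4 CPM for Slit2fl/fl but 338, 84.4 and 121 CPM for Slit2th. Like Fstl1, both were far highest in Slit2th replicate 1 and lowest in Slit2fl/fl replicate 1. The relatives of Fstl1 were not near the top of this order. Smoc2 ranked 835 (1.03), Sparcl1 909 (1.05), Sparc 4167 (1.43) and Spock1 4695 (1.50). The measure also counts the size of a pattern, so a gene with the pattern of Fstl1 but a smaller spread ranks lower. Closest to Sparcl1 were Rbm12b1 (0.09), Hnrnpf (0.18), Chuk (0.21), Ints6 (0.22) and Fbxl4 (0.22), and Smoc2 ranked 1043 (0.65) and Fstl1 3707 (1.05). Hnrnpf, an RNA-binding protein gene, stood at 39.7, 128 and 107 CPM for Slit2fl/fl and, like Sparcl1, highest in replicate 3 of Slit2th (174, 245 and 293 CPM).

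Markers of other cell types also differed between these libraries, and their part in the values of Fstl1 and Sparcl1 was not tested. The 15 macrophage markers summed to 34.7 to 90.6 CPM in Slit2fl/fl and 118 to 646 CPM in Slit2th, with the 646 in Slit2th replicate 1, the library in which Fstl1 was highest. Such a sum is weighted to the most abundant markers, so its pattern need not hold for each of the 15. Of these 15, 5 did not overlap between the groups, with Slit2th above (8.74% of all tested genes), none was at 0 throughout, and Lyz2, the most abundant, was at 32.3 ± 13.5 and 144 ± 122 CPM (SD, n = 3 each). Together the 16 glia markers made up 6138 to 12620 CPM in Slit2fl/fl and 14660 to 21413 CPM in Slit2th, again highest in Slit2th replicate 1 and lowest in Slit2fl/fl replicate 1. Of the 16, 3 lay wholly above and 1 wholly below in Slit2th, against 8.74% and 9.72% of all tested genes, and none was at 0. The 13 fibroblast markers (2542 to 3541 against 3326 to 4976 CPM, Col1a2 highest, 2 above and 0 below) and the 12 mural markers (204 to 342 against 334 to 494 CPM, Mcam highest, 1 above and 2 below) had overlapping sums. The mural sum, too, was highest in Slit2th replicate 1. The 12 endothelial markers summed to 42.6 to 134 CPM in Slit2fl/fl and 50.1 to 58.2 CPM in Slit2th, with Egfl7 highest, 0 above and 1 below. The mural and endothelial markers wholly below were too low to test, with 5, 18 and 8 counts over all libraries. The shares of 8.74% and 9.72% cover tested genes only. The 12 sensory neuron markers summed to 35.9 to 48.3 against 49.6 to 72.2 CPM, most of it Ntrk2, while Pou4f1, Tac1, Scn10a, P2rx3 and Runx3 were at 0. The 14 proliferation markers, with Top2a highest, were lower in sum in every Slit2th library (469 to 582 against 229 to 433 CPM).

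**Figure D4:**
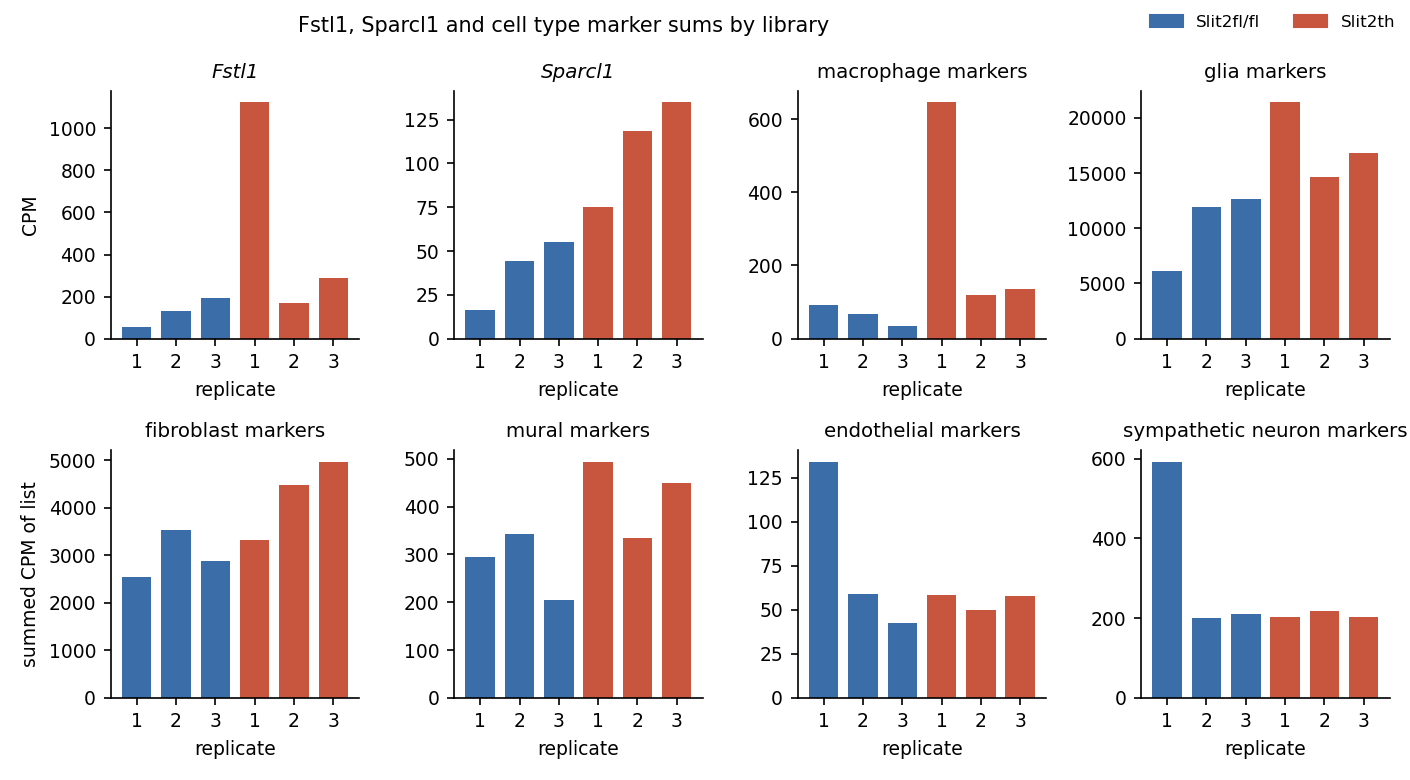
CPM of Fstl1 and Sparcl1 and the summed CPM of 6 cell type marker lists in each library, Slit2fl/fl in blue and Slit2th in red, each panel from 0 on its own axis. Fstl1 and the macrophage, glia and mural sums share their highest library, Slit2th replicate 1 (1124, 646, 21413 and 494 CPM). Sparcl1 and the fibroblast sum are highest in Slit2th replicate 3 (135 and 4976 CPM).

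FSTL1 and the follistatins act on BMP and activin signaling, so the other genes of that pathway were read from the same fit, in which the median log2 fold change of all tested genes was -0.05. Of 18 extracellular regulators of BMP and activin ligands in the table, a list of antagonists and modulators that also holds the proteases Bmp1, Tll1 and Tll2, 8 were tested and 0 had an unadjusted p under 0.05 (median 0.50, and 0.02 without replicate 1 of both groups). The highest per kilobase were Bmp1, the procollagen protease that cleaves the antagonist chordin (107 ± 31.2 and 143 ± 89.5 CPM), Twsg1, a BMP-binding modulator (33.7 ± 17.3 and 59.1 ± 5.60 CPM), and Nbl1, a DAN family antagonist (19.7 ± 14.1 and 7.46 ± 4.405 CPM; SD, n = 3 each). Among 18 ligands, 9 were tested, 0 passed an unadjusted p under 0.05 and the median was 0.13, with Tgfb2 (68.1 ± 13.7 and 104 ± 16.6 CPM, SD, n = 3 each), Gdf11 and Gdf5 highest per kilobase. Among 16 receptors and co-receptors, 11 were tested and 0 passed (median 0.39, and 0.05 without replicate 1 of both groups), and Bmpr1a, a type I BMP receptor, was the highest at 329 ± 47.9 and 282 ± 51.4 CPM (SD, n = 3 each), ahead of Tgfbr1 and Rgmb per kilobase.

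Of 14 response genes 11 were tested (median 0.60, but -0.18 over the 13 with a count when no filter was used), with 1 higher and 1 lower at an unadjusted p under 0.05. Id1, a direct BMP target, was lower in every Slit2th library (25.2 ± 10.6 and 9.18 ± 5.22 CPM, SD, n = 3 each), with a log2 fold change of -1.42 and an adjusted p of 0.435 by edgeR's test. Its paralog Id3 had a log2 fold change of -0.80 (adjusted p = 0.494, edgeR), and Id4 and Tgfbi, also among the highest of the list, had 0.60 and -0.19. Without replicate 1 of both groups, Id1 was at -0.67 and Id3 at -0.36. Ccn2, a matricellular TGF-beta target, was higher in every Slit2th library, with a log2 fold change of 1.78 (adjusted p = 0.422, edgeR; 1.65 and 0.0315 without replicate 1 of both groups), and the antisense gene Gm15270 overlaps its exons. The fit without replicate 1 of both groups had 3.29% of all genes past the adjusted threshold. In the reported fit, 2 of the 11 response genes thus had an unadjusted p under 0.05, against 10.8% of all tested genes.

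Of 7 proposed receptors and partners of FSTL1, 6 were tested (median 0.18) and 1 had an unadjusted p under 0.05, against 10.8% of all tested genes. It was Cd36, a fatty acid and thrombospondin receptor also found on macrophages, at 21.8 ± 5.24 and 70.9 ± 32.2 CPM (SD, n = 3 each), with a log2 fold change of 1.70 and an adjusted p of 0.422 by edgeR's test (1.09 and 0.0774 without replicate 1 of both groups). Dip2c had a log2 fold change of 0.36. Among the 11 collagen and matrix partners of SPARC, all tested (median 0.13), 1 was higher and 1 lower at an unadjusted p under 0.05, against 3.99% and 6.78% of all tested genes. Col3a1, a fibrillar collagen gene, had a log2 fold change of 1.14 (adjusted p = 0.448, edgeR), and Col4a2, a basement membrane collagen chain gene, had -1.60 (adjusted p = 0.422, edgeR; 0.0140 without replicate 1 of both groups). The reads of Col4a2 can be shared with Col4a1, whose exons it overlaps and whose own log2 fold change was 0.34. Col1a2, Nid1 and Pdgfa, the highest of the list per kilobase, had log2 fold changes of 0.42, 0.12 and -0.33. Of 7 other genes with follistatin domains in the table, 3 were tested and 0 had an unadjusted p under 0.05. Their median was 0.74, with 0.24 without Slit2th replicate 2 and 1.21 without Slit2th replicate 1, and 1 of them passed an unadjusted p under 0.05 in 7 of 19 alternatives. Igfbp7 was the highest of them at 158 ± 89.2 and 371 ± 214 CPM (SD, n = 3 each), with a log2 fold change of 1.23 and an adjusted p of 0.477 by edgeR's test (1.32 and 0.0132 without replicate 1 of both groups). The fit that gave the lower adjusted p of Col4a2 and Igfbp7 had 3.29% of all genes past the adjusted threshold. Fits without replicate 2 or without replicate 3 of both groups had 0 such genes. Agrn, the synapse-organizing proteoglycan gene, and Tmeff1 had -0.24 and 0.74.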

How the data were processed

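The authors aligned the reads with HISAT2 and deposited raw read counts for 20173 genes in 6 libraries, not normalized. The paper names mm10 as the genome and the submitters' processing notes GRCm39; the counting program, strand setting and annotation release are not given in the sources used here. Counts carry no coordinates, so positions, exon lengths and overlaps come from GENCODE M21 (GRCm38), in which 20159 identifiers were found. Genes with at least 1 CPM in at least 3 libraries (12152) were normalized by TMM and tested with edgeR 4.0.16 (quasi-likelihood, no covariates, R 4.3.3), with Benjamini-Hochberg adjusted p under 0.05 as the threshold. DESeq2 1.42.0, limma 3.58.1, other filters and normalizations, GC-corrected offsets, a replicate block and left-out libraries were alternatives. Single genes and ratios were compared by two-sided exact permutation tests, ratios on unmodified CPM and levels on log2 CPM with a prior count of 2. The genes and lists were chosen with earlier results of these data known. All 10 members and Slit2 are named, with the 3 highest members of each pathway list, those at an unadjusted p under 0.05, the top marker of each list and the 5 genes most like Fstl1 and Sparcl1, and other genes only as overlapping neighbours, proteases of a list or markers without a count; a few genes that this rule names are not reported here. Total counts per library ranged from 1255939 to 3155406, edgeR's intervals reflect the spread between libraries, and floors cover counting error only.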

Additional observations from a re-analysis of the deposited data

How the results depend on the processing

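The biological coefficient of variation across genes was 50.4%, and totals of 1255939 to 3155406 counts left 4 of the 10 genes untestable. The number of genes past the adjusted threshold was 0 in the reported fit, 31 by DESeq2, 17 by edgeR's exact test and 7 without a filter, and 0 to 377 with libraries left out (1 without Slit2fl/fl replicate 1 and 377 without replicate 1 of both groups). Genes at an unadjusted p under 0.05 numbered 1309, and 653 to 1999 with libraries left out. Of the 10 genes, 2 had an unadjusted p under 0.05, and 1 to 2 did with libraries left out. Sparcl1 alone passed the adjusted threshold, without replicate 1 of both groups, so that 0 to 1 of the 10 passed with libraries left out. Fstl1 had a positive log2 fold change in all 19 alternatives (0.48 to 2.80), as had Sparcl1 (1.14 to 1.81) and Smoc2 (0.25 to 0.82), and Spock1 a negative one (-0.85 to -0.13). Sparc ranged from -0.18 to 0.41 and Fst from -1.41 to 0.47 with libraries left out, and Fst was at 0.03 when libraries were scaled by their totals only. The log2 ratio of Fstl1 to Sparcl1 ranged from -0.89 to 0.80. Over all 19 alternatives the median log2 fold change of the tested list members ranged from 0.23 to 1.21 for other genes with follistatin domains, 0.01 to 0.68 for extracellular regulators, 0.0 to 0.58 for ligands, 0.05 to 0.47 for receptors, -0.18 to 0.79 for response genes, 0.03 to 0.40 for FSTL1 partners and 0.06 to 0.39 for SPARC partners. The cause was not tested.

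Replicate numbers are shared between the groups, and the reported fit did not treat them as pairs. Deviations of same-numbered libraries correlated across genes at 0.292, 0.244 and 0.0808. Those of differently numbered libraries correlated at -0.312 to 0.255. These values do not settle whether the numbers pair the libraries. A fit with replicate as a block gave 0 genes past the adjusted threshold. It had 1614 genes at an unadjusted p under 0.05, against 1309 in the reported fit. In the block fit 1 of the 10 genes, Sparcl1 (1.63), had an unadjusted p under 0.05, also with GC-corrected offsets (1). Fstl1 was at 1.62 in the block fit (unadjusted p = 0.0556 by edgeR). Log2 fold changes were related to GC content across genes (Spearman -0.354, over genes that are not independent replicates), and GC-corrected offsets moved Sparc from 0.06 to 0.30 and Fstl1 from 2.07 to 2.2. Of the genes at an unadjusted p under 0.05, 37.1% were higher in Slit2th in the reported fit, 46.7% with GC-corrected offsets, 48.2% by limma-voom and 49.2% with the replicate block and GC-corrected offsets together.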
